A study of Mus musculus with 26 samples.

Results

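Sperm of 15 male mice that descend from a spermatogonial stem cell transplantation (SSCT) was compared with sperm of 5 control males, over 458602 autosomal CpG positions and the 106004 windows of 1000 bp that hold them. Spermatogonial stem cells are the testis cells that renew themselves and give rise to sperm, and SSCT places cultured cells of this kind into a sterile testis so that it makes donor sperm. The 20 mice are all the offspring among the 26 mice of the series. They were chosen by library number: libraries 1 to 10, 12, 14, 15, 18 and 19 are SSCT-derived, and libraries 11, 13, 16, 17 and 20 are control. The other 6 libraries are 3 control F0 and 3 SSCT F0 males. Their sperm was taken at 16-18 months of age, so the F0 values below differ from the offspring in age as well. Methylation was measured by reduced-representation bisulfite sequencing (RRBS), which reads CpG-rich fragments and reports at each CpG the share of reads in which the cytosine was protected by a methyl group.

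All 20 offspring were DBA/2J males killed at 3 months of age, and sperm came from the cauda epididymis. In the SSCT line, neonatal DBA/2J stem cells from several cultured lines were propagated and transplanted into sterile W/W-v males, which were mated with untreated DBA/2J females to give a first generation, SSCT F1. SSCT F1 females mated with control males gave SSCT F2/M, and SSCT F1 males mated with control females gave SSCT F2/P. Controls were the first generation of untreated DBA/2J pairs (control F1), so that no control of the second generation exists. The transplanted fathers and the control fathers were 3 males each. Brothers were avoided within a group of 5, and parents of individual mice are not given in the labels. The tests below treat the 20 mice as independent. Relatedness between them could not be modelled, which limits the p-values.

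The sources disagree on which libraries are control. The numbering used here follows the study's clustering heatmap, in which SSCT F1 is libraries 12, 14, 15, 18 and 19, SSCT F2/M is libraries 2, 4, 5, 6 and 9, and SSCT F2/P is libraries 1, 3, 7, 8 and 10. The sample titles instead give control F1 to libraries 2, 4, 5, 6 and 9, and a treatment label marks 10 libraries as WT (2, 4, 5, 6, 9, 11, 13, 16, 17 and 20). Counts of calls and means are therefore given under the heatmap names and again under the titles. Under the titles the 5 heatmap controls belong to the SSCT-derived mice, so a site chosen for a difference of these 5 from the rest is pushed toward the opposite sign by the renaming itself, and its titles value is no test of direction. With the treatment label, 0 CpGs and 0 windows met the call defined below. Control libraries all lie among numbers 11 to 20, as do those of SSCT F1, and the libraries were sequenced in pools whose members are not given. A difference between pools therefore cannot be told apart from a difference between groups.

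Sperm chromatin carries dense methylation outside CpG islands, while CpG-rich promoters are almost free of it. Germline imprints are the exception in which the mark depends on the parent: a few regions are methylated in sperm only, and many more are methylated in the egg and bare in sperm. Methylation is erased and rebuilt in germ cells, after which DNMT3A and its partner DNMT3L write the sperm pattern and DNMT1 copies it at cell division.

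Coverage differed little between the groups. The reads summed over CpG positions ranged from 45616751 to 75299581 in SSCT-derived mice and from 49632926 to 72218747 in control mice (exact permutation test, two-sided, p = 0.484). The median coverage of the positions kept lay between 33 and 54 reads. A window held a median of 2 covered positions, and 30.1% of windows rested on a single position. Methylated spike-in DNA read 98.3 to 98.9% methylated and unmethylated spike-in DNA 0.542 to 1.22% in the 20 libraries. Library 7 (SSCT F2/P) and library 17 (control) stood apart from the rest in window methylation, and the main results are also given without each. No pair of libraries held near-identical counts: the lowest mean chi-square per window over 190 pairs was 6.26, where sampling noise alone gives about 1.

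Promoter sequences show the range of the sperm pattern in both groups. Below, each line holds the 300 bases from 250 before to 50 after a RefSeq transcription start (GRCm38.p6), read 5′ to 3′ on the strand of the gene, and capitals mark the CpGs that were measured in all 20 mice. The first 3 promoters are that of an imprinted gene, a CpG-rich promoter and a CpG-poor promoter, shown as the extremes of methylation. The Grb10 stretch was picked by its start site, and whether it holds the region that carries the imprint was not tested. Of the last 3, Nectin3 overlaps a window and Gm31036 holds a CpG at which control and SSCT-derived mice did not overlap, and Zdhhc25 is the promoter with the largest difference.
Grb10, chr11:12037371-12037670, minus strand: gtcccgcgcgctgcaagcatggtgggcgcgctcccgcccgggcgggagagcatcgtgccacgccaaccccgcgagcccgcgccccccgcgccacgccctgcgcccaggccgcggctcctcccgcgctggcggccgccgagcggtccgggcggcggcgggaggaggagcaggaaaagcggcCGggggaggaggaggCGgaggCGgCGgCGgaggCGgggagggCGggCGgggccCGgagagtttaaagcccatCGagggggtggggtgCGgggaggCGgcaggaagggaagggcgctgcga
Tet2, chr3:133544341-133544640, minus strand: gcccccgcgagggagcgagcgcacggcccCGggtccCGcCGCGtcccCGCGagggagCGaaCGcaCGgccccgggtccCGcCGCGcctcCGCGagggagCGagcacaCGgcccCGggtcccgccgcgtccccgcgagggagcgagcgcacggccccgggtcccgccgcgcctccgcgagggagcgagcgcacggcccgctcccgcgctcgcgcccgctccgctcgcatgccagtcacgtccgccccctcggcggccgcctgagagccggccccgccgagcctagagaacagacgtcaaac
Hoxd4, chr2:74721728-74722027, plus strand: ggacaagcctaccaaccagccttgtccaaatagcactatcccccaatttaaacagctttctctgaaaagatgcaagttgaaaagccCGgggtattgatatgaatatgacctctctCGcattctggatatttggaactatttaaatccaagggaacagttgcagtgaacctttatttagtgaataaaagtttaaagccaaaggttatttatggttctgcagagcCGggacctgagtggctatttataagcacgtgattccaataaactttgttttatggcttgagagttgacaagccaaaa
Nectin3, chr16:46496918-46497217, minus strand: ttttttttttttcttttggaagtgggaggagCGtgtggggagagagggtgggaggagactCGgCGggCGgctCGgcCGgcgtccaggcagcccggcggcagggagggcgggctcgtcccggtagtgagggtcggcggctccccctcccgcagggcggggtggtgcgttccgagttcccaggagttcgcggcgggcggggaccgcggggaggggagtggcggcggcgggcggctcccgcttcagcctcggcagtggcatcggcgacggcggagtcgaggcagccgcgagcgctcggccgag
Gm31036, chr8:95137867-95138166, plus strand: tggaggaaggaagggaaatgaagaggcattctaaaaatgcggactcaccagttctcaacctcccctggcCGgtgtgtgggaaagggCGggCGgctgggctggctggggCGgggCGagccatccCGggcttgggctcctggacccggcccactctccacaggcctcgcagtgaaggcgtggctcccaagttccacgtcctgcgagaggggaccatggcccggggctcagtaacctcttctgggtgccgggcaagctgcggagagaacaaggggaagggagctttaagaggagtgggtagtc
Zdhhc25, chr15:88600052-88600351, plus strand: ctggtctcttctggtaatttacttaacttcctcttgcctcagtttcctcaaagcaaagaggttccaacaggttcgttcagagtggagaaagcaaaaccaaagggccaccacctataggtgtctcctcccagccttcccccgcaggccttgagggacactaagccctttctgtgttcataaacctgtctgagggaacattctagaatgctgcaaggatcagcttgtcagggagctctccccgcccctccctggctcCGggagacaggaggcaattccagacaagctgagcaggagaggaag

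Grb10 encodes an adaptor that restrains growth-factor signalling, and its promoter, with 45 CpGs in 300 bases, was methylated at 1.02% ± 0.705 (SD, n = 15) in SSCT-derived and 1.09% ± 1.33 (SD, n = 5) in control mice. The promoter of Tet2, an enzyme that oxidises methylated cytosine, held 57 CpGs and stood at 1.00% ± 0.820 and 1.46% ± 2.01. One of the Hoxd4 start sites, with only 4 CpGs, stood at 96.4% ± 3.62 and 97.9% ± 2.03. At these 3 promoters the groups differed by less than the spread between mice. Over all 8228 promoters with a covered position, the level fell with CpG content in the same way in both groups: 58.5% and 58.1% with 0 to 4 CpGs, 30.7% and 30.8% with 5 to 9, 4.37% and 4.38% with 10 to 19, and 1.88% and 1.88% with 20 or more (SSCT-derived and control). None of the 5 comparisons of promoter means (4 classes and all promoters) passed the exact permutation test after adjustment (lowest adjusted p = 0.918; under the titles, lowest adjusted p = 0.058, with all promoters 0.0549 points lower in SSCT-derived mice).

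Imprinted loci stood at similar levels in both groups. Of 46 windows at 13 marker genes, 25 were below 10% and 12 above 90% in both groups. Nnat (2.78% and 1.88% in SSCT-derived and control mice), Peg3 (2.58% and 2.80%), Mest (3.07% and 2.85%) and Plagl1 (1.86% and 1.57%), whose imprints are set in the egg, were bare in each covered window. Other genes of this kind held bare and methylated windows side by side: Snrpn ranged from 2.09 to 89.4%, Kcnq1ot1 from 1.76 to 94.7% and Igf2r from 1.698 to 98.8% in SSCT-derived mice. H19, Meg3 and Rasgrf1, whose imprints are set in sperm, held windows of either kind within the gene and 2000 bp around it. These windows were picked by distance from the gene and need not hold the region that carries the sperm imprint, so they are no measure of it. Of the 2 windows at H19, one stood at 97.0% and 98.6% and the other at 1.55% and 1.65%, and Rasgrf1 had 3 of 6 windows above 90% and 3 below 10%. The largest difference between the groups at any of the 46 windows was 6.69 points, at Meg3.

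With the mouse as the unit, no CpG and no window was called differentially methylated. The call required q under 0.01 and a difference of the mean over mice above 25 percentage points, by a logistic model with a quasi-likelihood F test whose dispersion carries the spread between mice. It was met by 0 of 458602 CpGs (DMCs, 0.0%) and 0 of 106004 windows (DMRs, 0.0%). Counts of CpGs are counts of positions with the strands apart, so a CpG covered on both strands is counted on each. With strands merged there were also 0 DMCs and 0 DMRs. Under the sample titles the call was met by 2 CpGs (0.000436%) and 1 window (0.000943%). At an unadjusted p under 0.05, the F test marked 40580 CpGs (8.85%) and 7758 windows (7.32%), limma on log2 ratios 4.35% and 4.84%, and an exact permutation test at each feature 7133 CpGs (1.56%) and 3517 windows (3.32%). limma made 0 calls of either kind by the same thresholds. The exact test has a smallest p of 0.000129, too large to pass adjustment over this many features unless many share it, so it gives no count of calls. Without library 17 the F test called 5 CpGs and 1 window, and without library 7 it called 0 of either.

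Reads counted as independent give another picture. The chi-square test without a term for the spread between mice, the default of methylKit, called 581 CpGs (0.127%) and 126 windows (0.119%), and under the titles 673 CpGs (0.147%) and 132 windows (0.125%). The median dispersion, the variance between mice relative to that of independent reads, was 4.25 over CpGs and 6.19 over windows. All 126 windows with a difference above 25 points passed that test, while 81 of them (0.0764% of windows) reached an unadjusted p under 0.05 by the F test and their lowest q was 0.018.

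Without a size threshold, 205 windows (0.193%) and 3841 CpGs (0.838%) had q under 0.05 by the F test. Under the titles these were 234 windows (0.221%) and 4553 CpGs (0.993%). Of the 205 windows, 182 (0.172% of all windows) were higher in SSCT-derived mice, while of the 3841 CpGs 1355 (0.295% of all CpGs) were higher and the others lower. Under the titles 196 of the 234 windows (0.185% of all windows) and 1507 of the 4553 CpGs (0.329% of all CpGs) were higher. The direction was thus alike under either naming. By size, 27 of the 205 windows differed by more than 10 points. The mean of the 15 mice lay within 1 point of 0 or 100% at 197 of them, against 13.4% of all windows. The Tshz3 window, chr7:36717001-36718000, is an example. There, 15 mice stood at 100% and the controls at 100, 89.1, 88.6, 100 and 93.5% (libraries 11, 13, 16, 17 and 20). The 15 mice added nothing to the dispersion of 1.14, so the q of 0.000769 treats reads as nearly independent. The exact permutation test over mice gave p = 0.0175 before any adjustment.

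**Figure D1:**
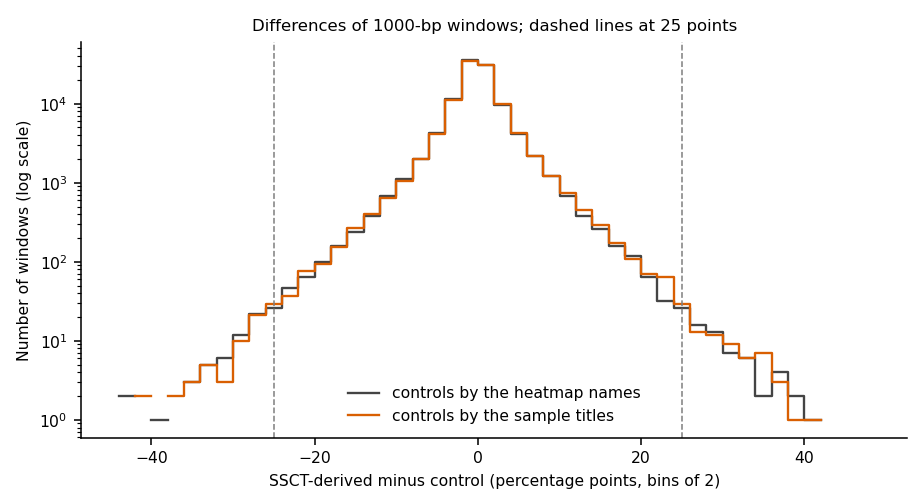
Number of windows (log scale) by the difference of the mean methylation, SSCT-derived minus control, in percentage points and bins of 2, with the controls named by the heatmap (grey) or by the sample titles (orange). Both curves centre on 0 and have like tails: 126 and 132 windows lie beyond 25 points in either direction.

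Differences between the groups were small at most windows and even in direction. The difference was within 5 points at 92603 windows (87.4%), above 10 points at 3508 (3.31%) and above 25 points at 126 (0.119%), of which 63 (0.0594%) were higher and 63 (0.0594%) lower in SSCT-derived mice. The extremes were -42.7 and 41.7 points. Under the titles 132 windows (0.125%) exceeded 25 points, of which 71 (0.067%) were higher. Windows above 25 points under both namings numbered 10, and 0 of them had the same sign under both. The renaming itself pushes such windows toward the opposite sign.

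The 126 windows were mostly partly methylated and thinly covered. Of these, 109 (86.5%) had a mean between 20 and 80%, a class of 12.5% of all windows, and 96 (76.2%) rested on 1 position. They lay between genes in 66 cases (52.4%), in a gene span in 57 and over a promoter in 3. Of all windows, 32.1% lay between genes, 56.2% in a gene span and 11.7% over a promoter. Within these windows the median SD between mice was 20.7 points among controls and 21.6 points among SSCT-derived mice, close to the median difference of 28.2 points. Control F0 mice were nearer to the control offspring in 34 of the 115 windows they covered (29.6%). The share was 30.6% (37 of 121) for the windows above 25 points under the titles and 36.6% for those of 10 to 25 points.

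A pair of the largest differences shows how the mice spread. At chr2:68795001-68796000, between genes, the controls stood at 52.9, 89.7, 100, 100 and 12.5%, and the SSCT-derived mice ran from 0 over a median of 33.3 to 74.0%. The difference of -42.7 points had q = 0.828, and the groups overlapped widely. At chr17:9538001-9539000, in the RNA gene Gm51424, the controls stood at 68.9, 77.4, 68.8, 85.0 and 56.8% and the SSCT-derived mice ran from 0 over 29.4 to 66.7%. This difference of -42.3 points gave q = 0.018.

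Genome-wide means of the groups differed by less than the SD between mice. Averaged over all windows, methylation was 61.5% ± 0.175 (SD, n = 15) in SSCT-derived and 61.6% ± 0.167 (SD, n = 5) in control mice, a difference of -0.0832 points (exact permutation test, two-sided, p = 0.381), and -0.0238 points under the titles (exact permutation p = 0.836). Without library 17 the difference was -0.153 points (exact permutation p = 0.0578) and without library 7 it was -0.0758 points. The SSCT F1 mice averaged 61.4% and the F2 mice of either line 61.5%. SSCT-derived mice were lower on 18 of 19 autosomes, with differences from -0.261 to 0.0170 points. The chromosomes of a mouse share its library, so the 18 are not independent.

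Classes of windows differed by less than 1 point. Promoter windows averaged 10.2% in each group (-0.0152 points), windows in gene spans 67.8% in each (-0.0489 points) and windows between genes 69.1% and 69.3% (-0.168 points). Windows below 5% differed by 0.0104 points, those of 20 to 80% by -0.310 points and those of 95% and above by -0.0557 points. None of 13 means passed the exact permutation test after adjustment, the lowest unadjusted p being 0.0978, for windows of 95% and above, and the adjusted p of all 13 was 0.676. Under the titles the 13 adjusted p were 0.958.

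**Figure D2:**
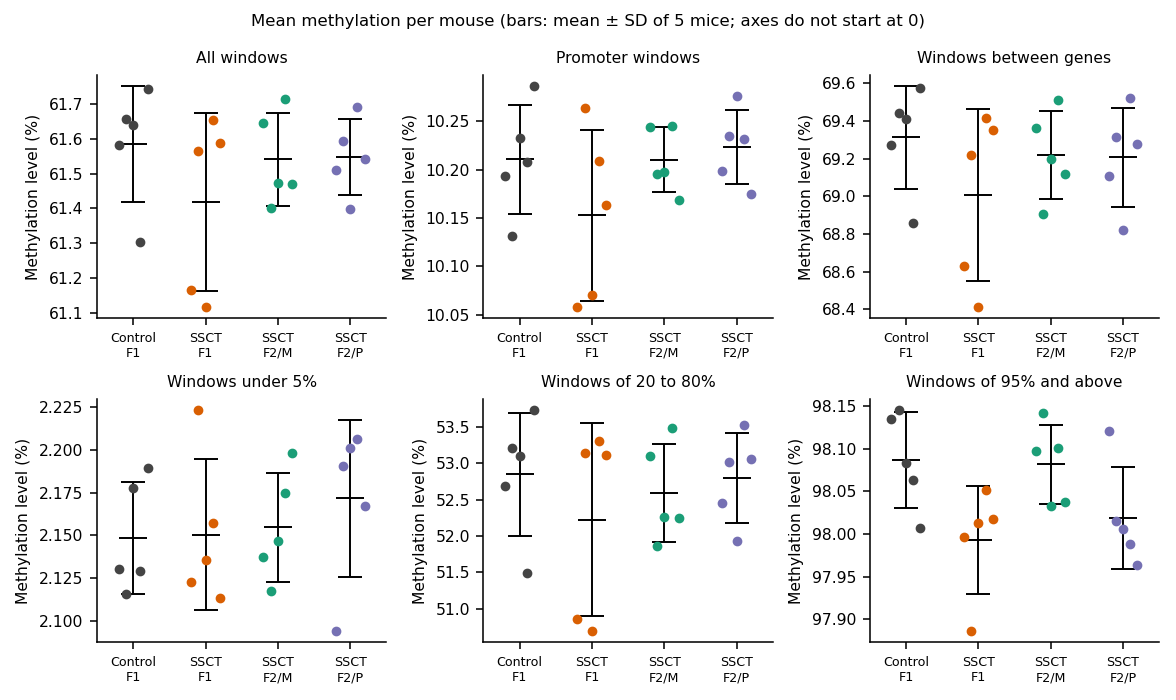
Mean methylation level (%) of each mouse in 6 classes of windows, with the 4 sets of 5 mice on the x axis as the heatmap names them; bars are mean ± SD. The y axes do not start at 0, and in each panel the control points overlap those of the 3 SSCT-derived sets. Library 17 is the lowest control in the panel of all windows.

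As a group, the control mice did not lie apart from the others, although 2 single mice did. Correlations of window methylation were 0.968 on average among the 105 pairs of SSCT-derived mice, 0.969 among the 10 pairs of controls and 0.969 between the groups. The pseudo-F of the Euclidean distances, which is about 1 where groups are no further apart than their members, was 0.972 (exact permutation test, one-sided, p = 0.763), and 5.13% of the variance lay between the groups. Under the titles it was 1.00 (exact permutation p = 0.457). Library 7 had the lowest mean correlation with the other mice (0.964) and library 17, a control, the next (0.966). Without library 7 the pseudo-F was 0.980 and without library 17 it was 0.947.

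**Figure D3:**
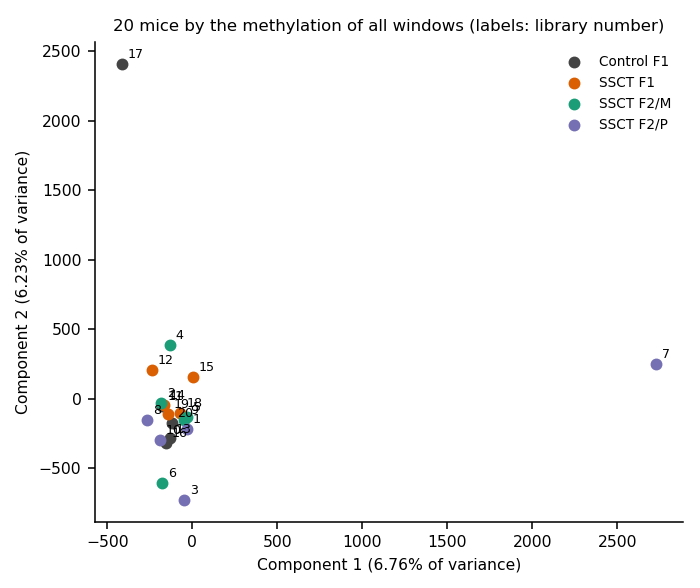
The 20 mice on the first 2 principal components of window methylation, which hold 6.76% and 6.23% of the variance, coloured by set and labelled with the library number. Library 7 (SSCT F2/P) lies alone on the first component and library 17 (control F1, dark grey) on the second, while the other 4 controls lie among the SSCT-derived mice.

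Departures of single mice from the common pattern did not differ between the groups past the test. A window was counted as a gain where the median of the other 19 mice was at most 5% and the mouse exceeded 25%, and as a loss where the median was at least 95% and the mouse fell below 75%. Gains made up 0.807% ± 0.144 (SD, n = 15) of such windows in SSCT-derived and 0.788% ± 0.105 (SD, n = 5) in control mice (exact permutation test, two-sided, p = 0.835). Losses made up 1.21% ± 0.171 and 1.13% ± 0.289 (exact p = 0.429). In windows of 3 or more positions the shares fell to 0.114% and 0.102% for gains and 0.162% and 0.149% for losses, again with no difference past the test (adjusted p = 0.835 for all 4, and at least 0.931 under the titles). Per mouse this amounted to 168 to 327 gained windows and 428 to 824 lost windows, the most of either in library 7. The mean distance of a mouse from the median of the others was 4.02 points in SSCT-derived and 3.93 points in control mice (exact p = 0.326), and its adjusted p was at least 0.604 in all 13 classes.

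The groups did not overlap at 8 windows (0.00755%), 3 of them (0.00283%) higher in SSCT-derived mice, and at 14 CpGs (0.00305%), 6 of them (0.00131%) higher. Under the titles the numbers were 9 windows (0.00849%) and 12 CpGs (0.00262%). No window without overlap reached 25 points. These windows and CpGs were chosen for this separation, so their values are a description. The choice also pushes F0 mice toward the SSCT-derived side, so the F0 values given below are no test of which group departs.

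The widest gap among the 8 windows was in Gm34439, an uncharacterised gene, at chr13:53777001-53778000. Its single position read 84.6, 87.2, 76.7, 80.6 and 87.8% in the controls (libraries 11, 13, 16, 17 and 20), and in SSCT-derived mice 96.9% in library 6 and 100% in the other 14. The difference was 16.4 points (F test, q = 0.000769), with the dispersion at its floor of 1. Control F0 mice stood at 100, 100 and 85.7% and the covered SSCT F0 mouse at 100%, so that 1 of 3 control F0 mice lay in the range of the control offspring.

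A window in Gm46852, near the mitochondrial NAD transporter gene Slc25a51, was lower in SSCT-derived mice. At chr4:45410001-45411000, with 4 positions, the controls stood at 83.8, 80.7, 79.9, 81.1 and 92.1%, and the SSCT-derived mice ran from 56.0 over 69.0 to 76.7%. The difference of -15.5 points had q = 0.0525. The 3 control F0 mice stood at 67.8, 64.6 and 70.0%, inside the range of the SSCT-derived mice. SSCT F0 libraries 21 and 23 stood at 59.0 and 0%.

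In Tldc2, chr2:157081001-157082000, the controls read 91.6, 91.2, 88.1, 93.9 and 95.8% and the SSCT-derived mice 95.9 to 100%, a difference of 6.69 points (q = 0.118). A window between genes at chr4:125082001-125083000 differed by 7.01 points (q = 0.114). SSCT-derived mice at 100% numbered 10 in the former and 12 in the latter, and no control offspring reached 96%. Control F0 mice all stood at 100% in the former, and at 92.0, 96.8 and 100% in the latter. SSCT F0 library 21 stood at 100% in either window, and the other SSCT F0 libraries had no reads there.

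The remaining 4 windows differed by less than 3 points. At chr12:5056001-5057000, between genes and with 33 positions the deepest of them (2013 to 3535 reads a mouse), the controls stood at 93.6, 94.0, 94.7, 95.3 and 94.6% and the SSCT-derived mice ran from 89.4 over 91.9 to 93.2% (difference -2.75 points, q = 0.0145). Windows in Zfp661 (a zinc-finger gene), Nectin3 (a cell adhesion molecule) and Ank3 (ankyrin-G) were nearly bare in all mice and lower in SSCT-derived mice by 2.52, 2.44 and 2.24 points, with q from 0.122 to 0.359. The control F0 mice stood at 7.59, 3.86 and 4.74% at Ank3, above every SSCT-derived mouse, and at 3.16, 0.917 and 1.07% at Nectin3. At chr12:5056001-5057000 they stood at 94.3, 92.0 and 92.1%, and at Zfp661 at 0.456, 5.44 and 2.54%. SSCT F0 libraries 21, 23 and 24 stood at 0, 2.92 and 0% at Ank3 and at 4.34, 0 and 0% at Zfp661. SSCT F0 libraries 21 and 23 stood at 0.769 and 50% at Nectin3, the latter on 28 reads. At chr12:5056001-5057000 these 2 libraries stood at 91.7 and 84.2%. In the Nectin3 promoter printed above, the 6 measured CpGs read 0.363% ± 0.760 (SD, n = 15) in SSCT-derived mice and 3.07% ± 1.74 (SD, n = 5) in controls, with 0% in control library 13 and q = 0.172 over promoters. At these 6 CpGs the groups overlapped, while over the window they did not.

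**Figure D4:**
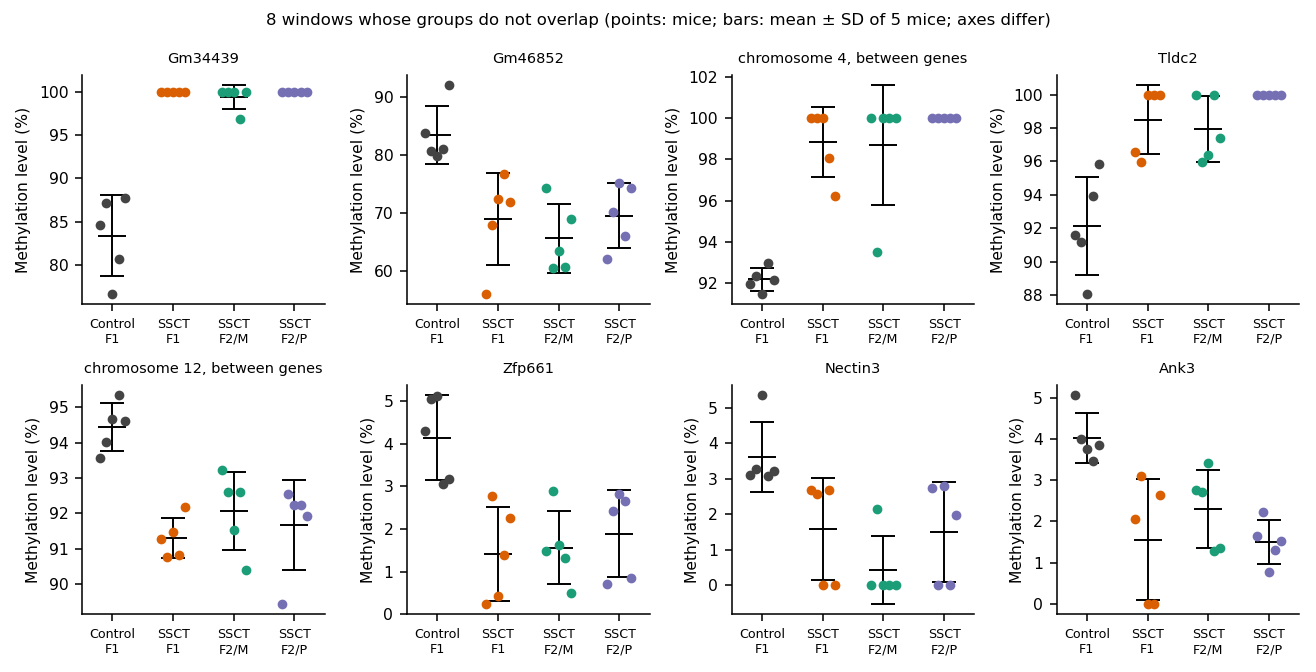
Methylation level (%) of each mouse at the 8 windows whose groups did not overlap, by set of 5 mice as the heatmap names them; points are mice and bars mean ± SD, and the axes differ. The gap between control and the nearest SSCT-derived mouse is 9.12 points at Gm34439 and under 1 point at 6 of the windows.

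Single CpGs without overlap had larger differences. The largest was 38.6 points at chr14:27577162, between genes: the controls stood at 4.55, 27.6, 19.4, 33.3 and 25%, and the SSCT-derived mice ran from 37.5 over 58.1 to 85.2% (q = 0.0222). In Plekhm2, whose product positions lysosomes, chr4:141631373 stood at 0, 6.38, 0, 0 and 4.17% in the controls and ran from 12.5 over 33.0 to 74.2% in SSCT-derived mice, 34.8 points higher (q = 0.0499). Of the control F0 mice, library 22 was at 0% there and the other 2 at 59.5 and 70.0%, within the SSCT-derived range. At chr14:27577162 the control F0 mice stood at 16.7, 36.4 and 52.9%. SSCT F0 libraries 21 and 23 stood there at 25.8 and 0%, on 31 and 20 reads, below every SSCT-derived offspring. At the Plekhm2 position these libraries stood at 68.6 and 100%.

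In Wdfy3, a gene of selective autophagy, chr5:101930681 was 32.1 points higher in SSCT-derived mice (q = 0.053). In Fat4, a large cadherin, chr3:38891224 was 21.3 points higher (q = 0.017). At the Wdfy3 position the 3 control F0 mice stood at 72.5, 89.8 and 89.5%, within the SSCT-derived range (65.5 to 97.9%). At the Fat4 position the 3 control F0 mice all stood at 100%, above each control F1 mouse (64.8 to 84.0%). At chr13:4924060, in contrast, they stood at 36.8, 27.0 and 31.7%, of which the first and last lie within the control F1 range (28.8 to 43.8%) and the middle one within the SSCT-derived range. In Pkhd1, the polycystic kidney gene, chr1:20260785 was 29.9 points lower at 49.7% ± 13.1 (SD, n = 15) against 79.6% ± 9.11 (SD, n = 5), with q = 0.026, and the control F0 mice stood at 89.7, 55.8 and 78.8%. In Acyp2, an acylphosphatase, chr11:30572957 fell by 27.0 points (q = 0.0215), to a range of 0 to 28.1% against 32.5 to 54.1%. The other 2, at chr12:108303102 and chr13:4924060, lie between genes and were 25.8 points (q = 0.029) and 22.2 points (q = 0.204) lower. Control F0 mice stood at 13.7, 37.1 and 3.37% at the Acyp2 position and at 65.8, 16.5 and 0% at chr12:108303102. SSCT F0 libraries 21 and 23 stood at 70.5 and 100% at Fat4 and at 3.03 and 63.6% at chr12:108303102. Both read 0% at Acyp2 and at chr13:4924060. At Pkhd1 library 21 stood at 100%, and at Wdfy3 no SSCT F0 library had 10 reads.

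The CpG at chr8:95137975, in Kifc3 (a kinesin) and in the Gm31036 promoter printed above, read 0% in all 15 SSCT-derived mice and 12.96, 11.9, 5.26, 2.04 and 12.5% in the controls (q = 0.00318). It was not among the 8 largest and was named after its values were seen. The 3 control F0 mice read 0% there, like the SSCT-derived mice, and the dispersion was at its floor of 1. SSCT F0 libraries 21 and 23 also read 0%. Over the 10 measured positions of that promoter the groups stood at 3.02% and 3.31%, a difference of -0.285 points.

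The largest promoter difference was at Zdhhc25, a gene of the palmitoyltransferase family. Its single measured CpG stood at 5.56, 73.9, 0, 0 and 27.3% in the controls and ran from 19.05 over 55.7 to 79.6% in SSCT-derived mice. The difference of 28.8 points had q = 0.753 over promoters. Among all promoters 0 passed q under 0.01 with more than 25 points.

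Zfp229 (a zinc-finger gene), F930017D23Rik (a long non-coding RNA), Gpx8 (a glutathione peroxidase family member of the endoplasmic reticulum), Tal2 (a helix-loop-helix transcription factor), Nudt1 (which clears oxidised purine nucleotides) and Lefty2 (a TGF-beta family signal of left-right asymmetry) were also followed by the study by bisulfite sequencing PCR. The last assay is named only Lefty, which is taken here as Lefty2, the name in the study's gene lists. The study reports that this PCR did not bear out the RRBS differences at its selected genes. The exception it gives is Tal2, with a smaller difference. Among these genes, only Zfp229 had a window here with q under 0.01. Its single position, in chr17:21730001-21731000, stood at 45.2, 30.8, 0, 28.2 and 17.2% in the controls, at 2.33% in 1 SSCT-derived mouse and at 0% in the other 14. The difference was -24.1 points (F test, q = 0.000642; exact permutation p = 0.00206), below the 25-point limit, and 12 to 67 reads per mouse lay behind it. The dispersion was only 1.24, although the controls ran from 0 to 45.2%, so this q rests largely on reads. The 3 control F0 mice and the covered SSCT F0 mouse all stood at 0%. Methylated reads were thus found in 4 of 5 control offspring and in none of the 4 covered F0 mice.

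F930017D23Rik varied among mice of both groups. At its window of largest difference, chr10:43623001-43624000, the controls stood at 16.4, 32.8, 44.6, 80 and 1.56% and the SSCT-derived mice ran from 0 over 0 to 47.4%, a difference of -28.4 points (q = 0.437). The mean over its 3 windows differed by -8.70 points. Gpx8 stood at 5.32% ± 2.07 (SD, n = 15) and 6.12% ± 7.21 (SD, n = 5), Tal2 at 1.64% ± 1.15 and 1.82% ± 0.597, Nudt1 at 53.7% ± 3.22 and 51.8% ± 7.99, and Lefty2 at 3.51% ± 2.71 and 2.87% ± 3.10. These 4 genes differed by less than the SD of the controls. For Tal2 the study's bisulfite PCR gave levels well above these, lower in SSCT F1 than in control F1. Whether the Tal2 positions measured here include the stretch of that PCR was not tested, so the values do not bear on its result.

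The other genes that the study lists were chosen from these samples, so their differences are no independent evidence. Of 56 such names 53 had windows, 25 higher and 28 lower in SSCT-derived mice, with a median difference of -0.181 points, and 47 lay within 5 points. A window above 25 points was found at 5 of them, with q from 0.423 to 0.733. Ccl3, a chemokine, had the largest mean difference: its window chr11:83648001-83649000 stood at 16.7, 17.9, 45.4, 12.6 and 55.7% in the controls and ran from 16.3 over 65.0 to 87.9% in SSCT-derived mice, 29.9 points higher (q = 0.564). At Gm6590, chr6:130476001-130477000, the controls spanned 0 to 100% and the SSCT-derived mice 0 to 41.9%, and the difference of -28.6 points had q = 0.423. Beside Zfp229 only Dlg4, a synaptic scaffold gene, had a window with q under 0.05. There, 15 mice stood at 100% and the controls averaged 95.3% (q = 0.0452).

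**Figure D5:**
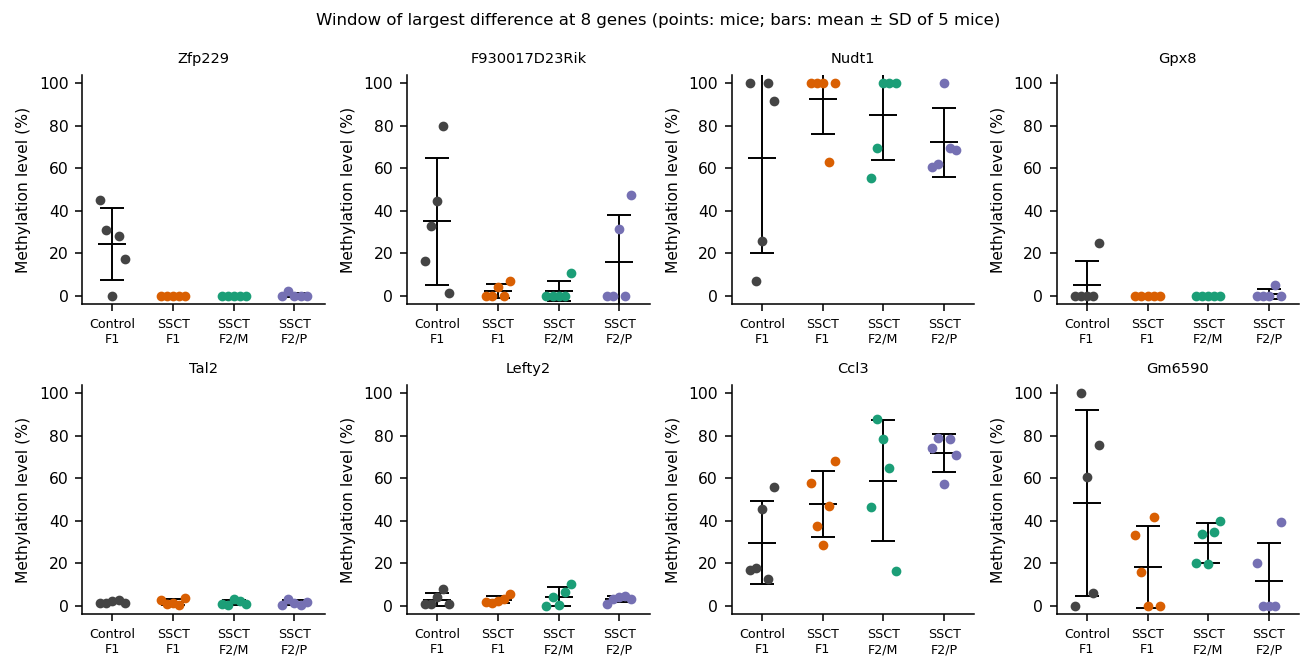
Methylation level (%) of each mouse at the window of largest difference of 8 genes, by set of 5 mice; points are mice and bars mean ± SD. At Zfp229 4 of 5 control mice lie above every SSCT-derived mouse, at F930017D23Rik, Ccl3 and Gm6590 the groups overlap, and at Tal2 and Lefty2 all mice lie below 11%.

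Lists of germline and developmental genes had median differences below 0.5 points, and none of their windows reached q under 0.05. The background is 7.32% of windows with an unadjusted F-test p under 0.05 and a median window difference of -0.123 points. The 6 paternally methylated imprinted genes had 1 of 29 windows past that p and a median gene difference of -0.138 points. Meg3, a maternally expressed RNA, differed most, at 54.3% ± 2.25 against 56.4% ± 1.24 (-2.04 points), followed by H19 (-0.823 points). The 28 maternally methylated imprinted genes with windows were split into 14 higher and 14 lower, with 9 of 124 windows past that p. Inpp5f, an inositol phosphatase with an imprinted isoform, stood 3.34 points higher, the RNA Peg13 2.90 points higher and Snurf, which shares its transcript with Snrpn, 2.86 points lower, and all 28 lay within 5 points.

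Genes that write and erase the mark showed 6 of 67 windows past that p. Dnmt3l stood at 97.0% ± 8.01 and 94.1% ± 11.5, and Tet2 over its 7 windows at 62.8% ± 2.13 and 64.7% ± 2.19. For spermatogonial stem cell genes the count was 8 of 146. Nanos3, an RNA-binding protein of germ cells, differed by -8.72 points, at 87.3% ± 21.0 against 96.1% ± 5.56, on 1 position and with SSCT-derived mice from 30.8 to 100%. Stra8, which marks the retinoic acid response before meiosis, was 2.04 points lower.

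Pluripotency genes had 2 of 58 windows past that p. Pou5f1 (OCT4) averaged 57.2% ± 4.13 in SSCT-derived and 46.4% ± 13.5 in control mice, a difference of 10.7 points. Its window of larger difference had q = 0.634. There the controls stood at 100, 100, 100, 69.0 and 44.4%, so that libraries 17 and 20 alone were low. Nanog stood 4.73 points higher, with SSCT-derived mice from 93.7 to 100% and controls at 100, 78.6, 96.7, 88.4 and 100%. Meiosis and piRNA genes had 9 of 65 windows (13.8%) past that p, 7 of them higher. Their largest differences were 2.68 points at Rnf17 (a tudor protein of the piRNA pathway) and 1.77 points at Stag3 (a meiotic cohesin).

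Spermiogenesis genes had 1 of 35 windows past that p, with Izumo1, which binds the egg, 3.07 points higher and Ldhc, the sperm lactate dehydrogenase, 2.25 points lower. All 39 Hox genes, the body-axis regulators, had windows, many of them shared between neighbours in a cluster. Of their 162 windows 8 were past that p, and 20 genes lay below 5% in SSCT-derived mice and 19 in control mice. Hoxd13 was 2.83 points lower and Hoxd4 2.51 points higher, each less than the SD among SSCT-derived mice (5.49 and 3.05). In the 8 lists that the study did not choose, 152 of 154 genes with windows lay within 5 points of control, the exceptions being Nanos3 and Pou5f1.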

How the data were processed

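Sperm DNA of 26 mice was measured by RRBS with single 50-bp reads, and the 20 offspring were compared here. The authors trimmed and aligned the reads and deposited for each library a list of cytosines in CpG context, with the fraction methylated and the coverage as a read count, strands apart (GRCm38/mm10). Tools in the submitters' processing notes were FastQC, Trim Galore 0.4.1, Bismark 0.20.0 and methylKit 1.7.0. Methylated counts were recovered as fraction times coverage, and 44 positions in 20 libraries were not whole within 0.01.

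Autosomal positions with 10 or more reads in all 20 libraries were kept and summed in windows of 1000 bp. Each feature was tested by a logistic model with a quasi-likelihood F test, dispersion floored at 1, and Benjamini-Hochberg adjustment over all features. Single values were tested by an exact two-sided permutation over the 15504 divisions of 20 mice into 15 and 5. Levels are means over mice. limma 3.58.1 (R 4.3.3) on log2 ratios with 1 read added was an alternative. Python 3.11.15, numpy 2.4.6, scipy 1.17.1 and pandas 2.3.3 were used, and the tests were tested on simulated data. Genes and promoters (250 bases before to 50 after the start) came from RefSeq GRCm38.p6.

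Members, gene lists and tests were chosen with earlier results of these data known. Named were the called windows and CpGs, filled up with those whose groups did not overlap, to at most 12 windows and 8 CpGs by size of difference, then 2 to 4 genes per list by size of difference and the 6 genes followed by bisulfite sequencing PCR. Further regions were named for the size of their difference or their p. Alternatives were the names of the groups, coverage minimum, upper coverage limit, test, size threshold, strand merging, window offset and minimum positions, replicate block and leaving out mice or sets. A permutation test at each feature was chosen after seeing the data.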

Additional observations from a re-analysis of the deposited data

Results flagged for a closer look

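In 132 groups of 5 mice examined, 9 had a mouse whose distance from the others exceeded Dixon's 95% limit. Chance flags about 1 in 20 groups. Library 7 (SSCT F2/P) was flagged at 3 measures. Its share of gained windows was 1.173%, against 0.814 to 0.914% in the other SSCT F2/P mice, its share of lost windows of 3 or more positions was 0.263%, against 0.152 to 0.18%, and the Pkhd1 CpG stood at 13.725%, against 50.0 to 64.0%. In gene spans, control library 17 averaged 67.582%, against 67.842 to 67.937% in the other controls.

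The other flags concern windows whose groups did not overlap. In the Nectin3 window, control library 16 stood at 5.357%, against 3.084 to 3.271%, and SSCT F2/M library 4 at 2.151%, against 0% in the rest of its set. At Gm34439, library 6 stood at 96.875% and at chr4:125082001-125083000 library 4 at 93.478%, where the others of SSCT F2/M were at 100%. At chr12:5056001-5057000, library 1 stood at 89.444%, against 91.918 to 92.548% in the other SSCT F2/P mice.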

How the results depend on the processing

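The count of DMCs was 0 in the main test and 8 with a coverage minimum of 5, 2 under the sample titles, 581 by the chi-square test, 79 with a limit of 10 points, 3841 at q under 0.05 of any size and 1 with a read-weighted difference. The count of DMRs was 0, and 1 under the titles, 126 by the chi-square test, 11 with a limit of 10 points, 205 at q under 0.05 and 1 read-weighted. Leaving out 1 mouse gave 0 to 7 DMCs and 0 to 1 DMRs: without control libraries 11, 13, 16, 17 and 20 there were 2, 5, 7, 5 and 7 DMCs, without library 8 there was 1, and without library 16, 17 or 20 there was 1 DMR. The cause was not tested.

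Replicate numbers did not pair the mice: over 30 same-numbered pairs the mean correlation of deviations was 0.00155 (-0.0137 to 0.0152). The fit with the replicate number as a block gave 13 DMCs and 0 DMRs.

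The mean over all windows ranged from -0.153 to -0.0439 points when 1 mouse was left out, and the pseudo-F from 0.942 to 1.01 and neither passed 0.05 under any alternative. Of 336 alternatives for the 12 window classes, 7 reached an unadjusted exact permutation p under 0.05: 3 without library 17, 4 for windows of 95% and above.

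Under the titles, all 16 named sites took the opposite sign, toward which their choice pushes them, since the 5 controls they were chosen on then belong to the SSCT-derived mice. The windows read -4.92 (Gm34439), 8.41 (Gm46852), -1.69 (chr4:125082001), -1.07 (Tldc2), 0.40 (chr12:5056001), 0.921 (Zfp661), 1.80 (Nectin3) and 0.053 points (Ank3). The CpGs read -21.7 (chr14:27577162), -9.50 (Plekhm2), -9.56 (Wdfy3), 9.67 (Pkhd1), 8.26 (Acyp2), 10.9 (chr12:108303102), 9.18 (chr13:4924060) and -7.93 points (Fat4). Under the treatment label 3 of the windows and 6 of the CpGs no longer passed 0.05. With the same names, the Nectin3 window no longer passed at a coverage minimum of 5. Leaving out mice says nothing of the stability of sites chosen for no overlap. The 8 named CpGs rest on 10 to 144 reads a mouse, which limits their precision.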
